A study of Homo sapiens with 12 samples.

Results

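HepG2 cells exposed to 2,4-D for 30 min were compared with untreated HepG2 cells at 0 min, across all genes with enough counts to test. HepG2 is an established human liver cancer line that keeps many functions of hepatocytes, and 2,4-D (2,4-dichlorophenoxyacetic acid) is a herbicide that acts as a synthetic auxin in plants. The comparison rests on 6 of the 12 libraries of the series, 3 from cells given 0.001 µM 2,4-D for 30 min and 3 from cells labelled as untreated, the 0 min group. The other 6 libraries came from cells given the same dose for 10 or 360 min, 3 each, and enter only where the timing of a change is described. RNA from polyadenylated transcripts was sequenced, and the files hold read counts per gene. The labels name no genetic change in the line, and per the labels' protocol cells were detached with trypsin before RNA was extracted. No untreated library from 30 min was analysed here, so the exposure and the 30 min that passed cannot be told apart. The labels call the libraries of a group triplicates and do not say whether they came from separate cultures, so p-values measure the spread between these libraries, which may be technical.

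Cells answer a change in their surroundings first through immediate early genes, whose transcription needs no new protein. Growth factor and stress signals reach them through kinases such as ERK, which switch on serum response factor and CREB at their promoters, and their mRNAs are short-lived, so levels can fall within minutes once transcription stops. Many of their products, among them AP-1 subunits, mRNA decay factors and phosphatases of ERK, in turn shape or end the signal. In liver cells the same early layer also includes regulators of mTORC1, the circadian clock and glucose uptake.

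Total counts were 83539763, 69227361 and 35562204 in the 30 min libraries and 37234649, 66761667 and 52010601 in the 0 min libraries. A count of 3, taken as the floor of detection, corresponded to 0.0359 to 0.101 CPM (the count scaled to the library's total) over all libraries. All 14 hepatocyte markers were measured, and their summed level was 32800 to 33300 CPM at 30 min and 30900 to 33500 CPM at 0 min. Some markers of other cells had no count in any of the 6 libraries, among them COL1A2, KDR, PTPRC and KRT7. They numbered 4 of 10 for fibroblasts, 3 of 10 for endothelium, 3 of 12 for leukocytes and 2 of 8 for bile duct cells. The leukocyte list summed to 1850 to 1920 CPM at 30 min and 1850 to 1970 CPM at 0 min, nearly all of it from LYZ, the gene of lysozyme. CD68, of the same list, had 54.3 to 58.1 CPM at 30 min and 48.9 to 56.3 CPM at 0 min. The summed level was 51.3 to 52.4 CPM at 30 min and 51.2 to 57.8 CPM at 0 min for fibroblast markers, nearly all of it from the smooth muscle actin gene ACTA2, and 1.68 to 2.04 and 1.47 to 2.16 CPM for endothelial markers. Bile duct markers summed to 758 to 822 CPM at 30 min and 819 to 841 CPM at 0 min. Nearly all of this came from EPCAM, SPP1, KRT19 and SOX9, which were all well expressed. At 30 min EPCAM had 309 to 331 CPM, SPP1 236 to 255, KRT19 114 to 129 and SOX9 94.2 to 113. Mitochondrial genes took 2.744%, 4.068% and 3.844% of all counts in 30 min replicates 1, 2 and 3, and 4.389%, 2.612% and 2.662% in 0 min replicates 1, 2 and 3. Untreated replicate 1 also stood apart from the other untreated libraries in the early genes described below. For many of these genes the text gives the calls kept on its omission, the change against it alone, or both. In bulk RNA, fewer cells of a type and less RNA per cell cannot be told apart.

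After 30 min, more genes were called lower than higher, and the largest called falls were in the immediate early genes FOSB and FOS. Of 17779 genes tested, 136 (0.765%) passed an adjusted p of 0.05 in edgeR's quasi-likelihood test, which gives every adjusted p below unless another tool is named. Among them 104 (0.585%) were lower and 32 (0.18%) higher than at 0 min. The median size of the change, on the log2 scale, was 0.407 among genes called lower (0.161 to 5.28) and 0.468 among genes called higher (0.173 to 1.13). A change of over 2-fold was found for 17 of the genes called lower and 1 of those called higher, and of over 1.5-fold for 37 and 12. Over all genes tested the median log2 fold change was 0.0033 and the median absolute value 0.0713, with 9140 genes above 0 and 8625 below it. All 136 called genes had 3 libraries at 30 min that did not overlap the 3 at 0 min, as did 2579 of all genes tested (14.5%), and 1652 genes had an unadjusted p under 0.05. The count of 136 moved with the libraries used: it was 61 to 79 on omission of any library other than untreated replicate 1, and 163 without that one. The compared groups fitted alone gave 67 calls, and DESeq2 gave 271.

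**Figure D1:**
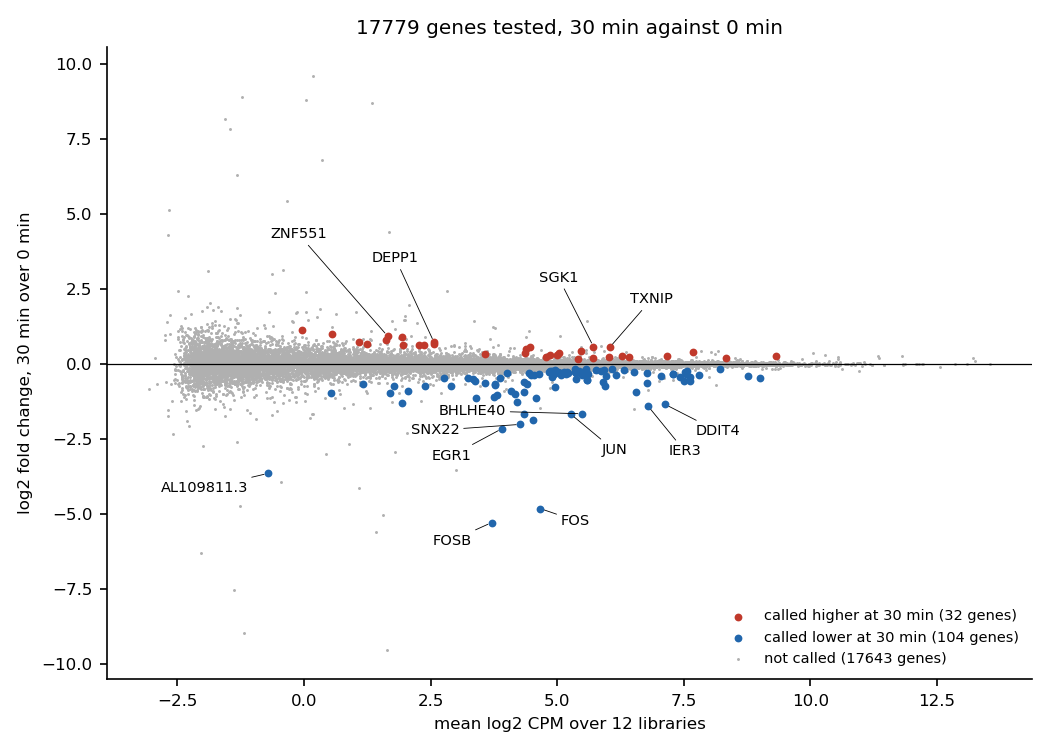
Each point is 1 of 17779 genes, with its mean level over the 12 libraries on the x axis (log2 CPM) and its log2 fold change at 30 min over 0 min on the y axis. The 104 genes called lower (blue) reach further from 0 than the 32 called higher (red), with FOSB at -5.28 and FOS at -4.82.

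Not every large ratio passed the test. A set of 30 genes that were not called had an absolute log2 fold change above 2.5, and several of them are gene models that join neighbouring genes, such as BIVM-ERCC5, SPECC1L-ADORA2A and C1QTNF3-AMACR. In each of these, libraries of 1 group ranged from few or no counts to a clear signal. The called gene AL109811.3, which overlaps TARDBP, MASP2 and AL109811.2, had 0.142, 0.159 and 0.0839 CPM at 30 min, against 1.74, 2.95 and 0.418 CPM at 0 min. Its change of -3.65 (SE 0.73, adjusted p = 0.039) is uncertain for the same reason, since the assignment of reads between overlapping models is not given in the sources used here, and AL109811.3 lost the call on omission of 30 min replicates 1, 2 or 3 or of 0 min replicates 1 or 2, with adjusted p up to 0.18.

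The AP-1 subunits, bZIP proteins that bind DNA as pairs, had the lowest median of the 32 pathway lists examined. Of 13 measured subunit genes 5 fell (FOSB, FOS, JUN, JUNB and MAFG) and 0 rose, all 13 had a log2 fold change below 0, and their median was -0.43. Over all genes tested, 0.585% were called lower and 8625 of 17779 lay below 0. All lists here and below were written with earlier results of these data known. Their counts and medians therefore describe the lists and are no test of them. FOS, the gene of the inducible partner of JUN (chr14:75278774-75282230, plus strand on GRCh38), had 3.09, 3.52 and 2.21 CPM at 30 min, against 14.1, 106 and 136 CPM at 0 min. The 3 exposed libraries lay close together at a low level, while untreated replicate 1 was far below untreated replicates 2 and 3 and still above every exposed library. The fitted log2 fold change was -4.82 (SE 0.64, adjusted p = 0.0026). FOSB, a second FOS family gene, had 1.39, 1.23 and 0.727 CPM at 30 min, against 6.11, 55.5 and 75.1 CPM at 0 min, with the same split among the untreated libraries, and fell by 5.28 (SE 0.70, adjusted p = 0.0026). Limma voom called neither gene (adjusted p = 0.15 for FOS and 0.27 for FOSB). With untreated replicate 1 as the lone library at 0 min, FOS was at -2.24 (adjusted p = 0.024) and FOSB at -2.41 (adjusted p = 0.012).

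JUN, the partner subunit of FOS (chr1:58780788-58784327, minus strand), had 27.8, 23.9 and 23.4 CPM at 30 min, against 35.3, 95.7 and 108 CPM at 0 min. Untreated replicate 1 lay just above the exposed libraries, and the other untreated libraries lay several-fold higher. JUN fell by 1.67 (SE 0.28, adjusted p = 0.013), and the call was lost on omission of any library other than untreated replicate 1 (adjusted p up to 0.082); against untreated replicate 1 alone it was at -0.49 (adjusted p = 0.19). JUNB, a family member that can restrain JUN, had 9.08, 10.5 and 8.84 CPM at 30 min, against 14.9, 20.3 and 23.0 CPM at 0 min and fell by 1.04 (SE 0.14, adjusted p = 0.0026), and with untreated replicate 1 as its sole comparator it was at -0.65 (adjusted p = 0.096). MAFG, a small MAF protein that pairs with other bZIP factors, fell by 0.22 (SE 0.04, adjusted p = 0.041), and MAFG lost the call on omission of 30 min replicates 1 or 2 or of 0 min replicates 1, 2 or 3, with adjusted p up to 0.17. The summed level of the 13 genes was 198, 196 and 197 CPM at 30 min, against 248, 457 and 532 CPM at 0 min. Without untreated replicate 1, 4 of the 5 calls held (MAFG was lost), and against that library alone 2 held, FOS and FOSB.

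**Figure D2:**
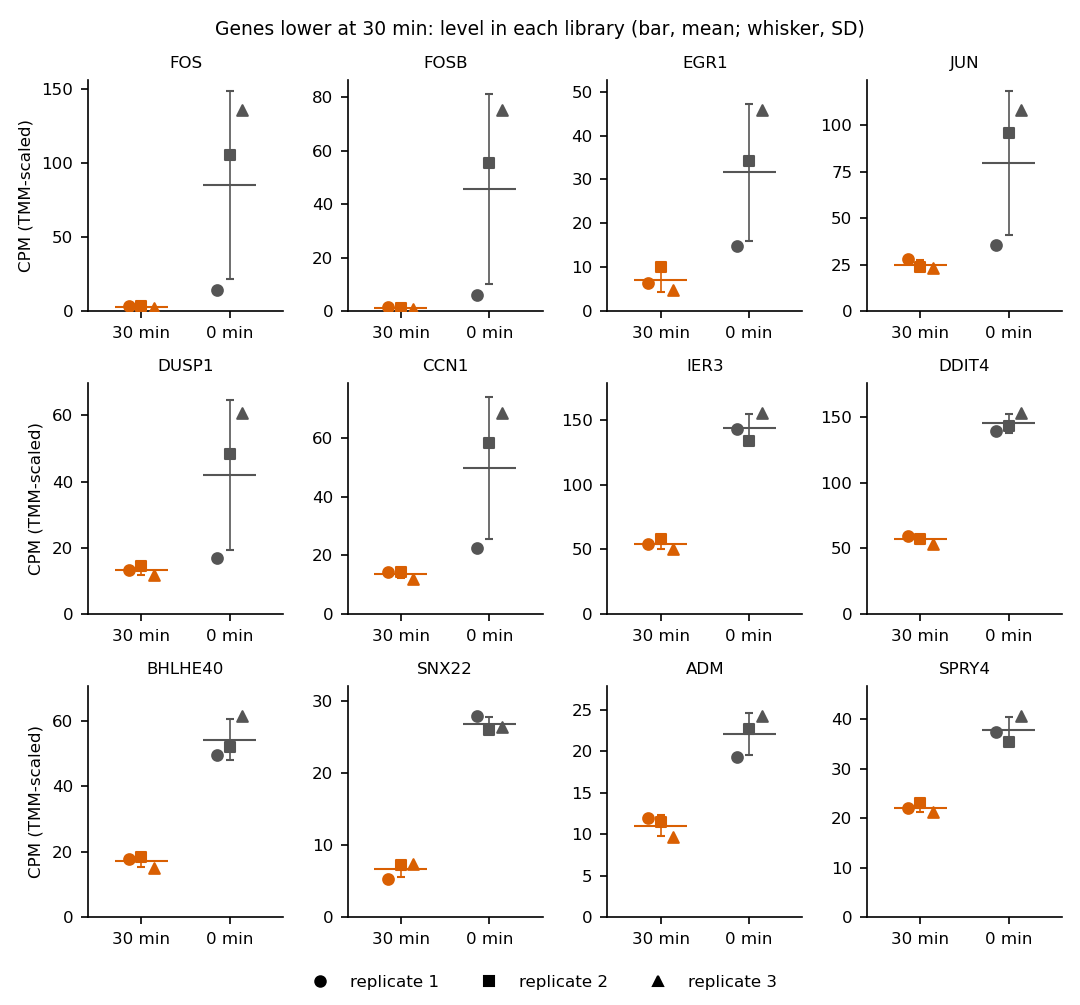
Level in each library (CPM after TMM scaling, linear axes from 0) of 12 genes called lower, with 30 min left of 0 min; symbols mark the replicate, bars the mean and whiskers the SD (n = 3). FOS, FOSB, EGR1, JUN, DUSP1 and CCN1 have an untreated replicate 1 far below replicates 2 and 3, while in IER3, DDIT4, BHLHE40, SNX22, ADM and SPRY4 the untreated libraries lie together.

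EGR1 showed the same split among untreated libraries. It encodes a zinc finger factor induced through serum response factor (chr5:138465490-138469315, plus strand) and had 6.42, 9.97 and 4.70 CPM at 30 min, against 14.8, 34.2 and 45.8 CPM at 0 min. The groups did not overlap, but untreated replicate 1 was nearer to the exposed libraries than to the other untreated ones. EGR1 fell by 2.15 (SE 0.34, adjusted p = 0.0095). The call was lost on omission of 30 min replicate 1 or of 30 min replicate 3, where adjusted p reached 0.061, and EGR1 stood at -1.06 (adjusted p = 0.33) against untreated replicate 1 alone. In the list of EGR, KLF and NR4A early factors, 3 of 15 measured genes fell and 1 rose, with a median of -0.23. The orphan nuclear receptor gene NR4A1 fell by 0.90 (SE 0.17, adjusted p = 0.028) and KLF6, a Krüppel-like factor, fell by 0.74 (SE 0.13, adjusted p = 0.014). KLF11, another member of that family, rose by 0.34 (SE 0.07, adjusted p = 0.033). NR4A1 kept the call only when untreated replicate 1 was the library omitted (adjusted p up to 0.13 otherwise), as did KLF6 (up to 0.082 otherwise), and KLF11 lost it in all 6 omissions (up to 0.16). None of the 4 calls held against untreated replicate 1 alone, without 30 min replicate 1 or without 30 min replicate 3.

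CCN1, a secreted matrix protein gene and target of YAP and serum response factor, had 14.3, 14.4 and 11.9 CPM at 30 min, against 22.4, 58.2 and 68.3 CPM at 0 min and fell by 1.87 (SE 0.29, adjusted p = 0.0075). It was the sole called gene of 17 measured YAP and SRF targets (median -0.02), and against untreated replicate 1 alone it was at -0.72 (adjusted p = 0.084). The call was also lost with the compared groups fitted alone (adjusted p = 0.077). CCN2, its close relative, was at -0.42 (SE 0.09, adjusted p = 0.053) and did not pass.

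Promoter letters of early genes that fell together are shown here to let their shared elements be read, in the 250 bases before the transcription start as RefSeq gives it on GRCh38.p14. Capitals mark the letters searched for, on both strands: TGACGTCA (the cAMP response element bound by CREB), TGACG (the shorter form of that element, contained in it), TGANTCA (the AP-1 site), CACGTG (an E-box), TATAAA (the TATA box), GAANNTTC (the core of the heat shock element) and CCATATTAG (a core of the serum response element).
FOS (chr14:75278578-75278827, plus strand): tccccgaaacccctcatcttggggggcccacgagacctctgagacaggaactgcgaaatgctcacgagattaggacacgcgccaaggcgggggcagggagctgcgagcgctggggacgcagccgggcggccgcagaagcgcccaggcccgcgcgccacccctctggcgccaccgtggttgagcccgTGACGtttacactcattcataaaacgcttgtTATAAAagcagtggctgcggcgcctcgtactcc
FOSB (chr19:45467746-45467995, plus strand): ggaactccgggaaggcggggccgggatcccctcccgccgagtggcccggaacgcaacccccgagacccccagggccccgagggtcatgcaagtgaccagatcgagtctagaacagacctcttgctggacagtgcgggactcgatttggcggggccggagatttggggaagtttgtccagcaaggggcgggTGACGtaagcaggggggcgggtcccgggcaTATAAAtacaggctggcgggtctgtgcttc
EGR1 (chr5:138465229-138465478, plus strand): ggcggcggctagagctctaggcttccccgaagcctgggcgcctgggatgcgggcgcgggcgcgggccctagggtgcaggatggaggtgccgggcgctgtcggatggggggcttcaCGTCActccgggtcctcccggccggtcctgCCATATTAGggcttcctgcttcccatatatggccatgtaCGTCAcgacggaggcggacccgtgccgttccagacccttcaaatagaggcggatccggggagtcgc
DUSP1 (chr5:172771196-172771445, minus strand): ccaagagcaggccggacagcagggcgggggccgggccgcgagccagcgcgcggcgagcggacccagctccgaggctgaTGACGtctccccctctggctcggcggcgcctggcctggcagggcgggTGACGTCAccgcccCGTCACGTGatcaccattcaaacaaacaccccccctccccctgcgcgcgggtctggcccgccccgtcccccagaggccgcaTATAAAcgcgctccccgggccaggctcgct
PPP1R15A (chr19:48872171-48872420, plus strand): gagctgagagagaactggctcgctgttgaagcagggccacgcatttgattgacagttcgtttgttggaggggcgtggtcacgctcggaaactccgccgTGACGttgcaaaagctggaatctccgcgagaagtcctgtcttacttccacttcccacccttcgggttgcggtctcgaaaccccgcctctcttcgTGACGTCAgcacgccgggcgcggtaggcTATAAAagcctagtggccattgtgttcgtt
DDIT4 (chr10:72273674-72273923, plus strand): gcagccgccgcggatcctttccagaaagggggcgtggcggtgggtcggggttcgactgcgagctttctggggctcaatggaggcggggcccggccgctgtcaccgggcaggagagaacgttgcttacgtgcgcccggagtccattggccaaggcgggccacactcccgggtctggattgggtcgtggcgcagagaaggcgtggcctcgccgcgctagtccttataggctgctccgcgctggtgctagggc
FOS and FOSB each hold 1 TGACG ahead of 1 TATAAA. EGR1 holds 2 TGACG, both on the opposite strand and so printed as CGTCA, around 1 CCATATTAG. The serum response element was searched for in this 1 spelling only. Its other spellings, and sites beyond the 250 bases, were not covered, so no promoter is shown to lack the element. DUSP1 and PPP1R15A each hold 1 full TGACGTCA and 1 TATAAA, and DUSP1 has in addition a CACGTG that overlaps a TGACG. DDIT4, whose untreated libraries lie together, holds none of the 7 in the window searched, and neither do the early genes NR4A1 and ZFP36. Only the first start listed for each gene was searched, and other starts were not covered. SPRY4 and SNX22, whose untreated libraries also lie together, each hold 1 TGACG, and BHLHE40 holds 1 CACGTG. The promoters shown were picked, so whether the letters go with the split among untreated libraries was not tested. Of the 27305 promoters in the RefSeq table, 21.7% hold TGACG, 1.77% TGACGTCA, 11.1% TATAAA, 6.49% CACGTG, 6.6% TGANTCA, 5.85% GAANNTTC and 0.0806% CCATATTAG in a window of the same length. Among the 11088 promoters matched to tested genes, the shares were 29.1%, 2.78%, 5.63%, 8.87%, 4.03%, 4.08% and 0.0631% in that order. Not every tested gene had a match. Shares over the called genes are void and not given, because the table matched only 78 of 104 lower genes (75.0%) and 23 of 32 higher genes (71.9%), under the 80% needed.

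Genes of the IER family and of mRNA decay factors also fell: 8 of 15 measured (IER3, ZFP36, PPP1R15A, IER2, BTG2, ZFP36L1, MCL1 and TOB2), with 0 higher and a median of -0.38. IER3, an early gene that modulates ERK signalling and cell survival (chr6:30743199-30744554, minus strand), had 54.0, 58.1 and 50.3 CPM at 30 min, against 143, 134 and 155 CPM at 0 min. Here all untreated libraries, replicate 1 included, stood far above all exposed ones. IER3 fell by 1.41 (SE 0.06, adjusted p = 1.4e-07) and was called under all 17 alternatives run, among them untreated replicate 1 alone, with -1.40 (adjusted p = 2.1e-05). IER3-AS1, an antisense gene that overlaps IER3, fell by 1.29 (SE 0.20, adjusted p = 0.0075) and may count reads of IER3, since the use of strand is not given.

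ZFP36, which binds AU-rich mRNAs and speeds their decay, had 6.16, 7.12 and 6.99 CPM at 30 min, against 11.7, 14.6 and 17.9 CPM at 0 min and fell by 1.13 (SE 0.14, adjusted p = 0.0015). Its relative ZFP36L1 fell by 0.42 (SE 0.09, adjusted p = 0.049), and TOB2, a partner of the deadenylase complex, fell by 0.38 (SE 0.05, adjusted p = 0.0037). BTG2, of the same family as TOB2, fell by 0.52 (SE 0.10, adjusted p = 0.041). PPP1R15A, the stress-induced subunit that directs dephosphorylation of the initiation factor eIF2, had 20.7, 17.8 and 16.4 CPM at 30 min, against 24.7, 45.2 and 49.8 CPM at 0 min and fell by 1.12 (SE 0.20, adjusted p = 0.022); untreated replicate 1 was again the lowest of its group, and without 0 min replicates 2 or 3 or any 30 min library the call was lost (adjusted p up to 0.12). MCL1, a short-lived survival protein of the BCL2 family, fell by 0.39 (SE 0.06, adjusted p = 0.009), and the early factor IER2 fell by 0.61 (SE 0.10, adjusted p = 0.013). MCL1 lost the call on omission of 30 min replicate 3, with adjusted p up to 0.061, and BTG2 lost the call on omission of 30 min replicates 1, 2 or 3 or of 0 min replicates 1 or 2, with adjusted p up to 0.16. ZFP36L1 lost the call on omission of 30 min replicates 1 or 3 or of 0 min replicates 1, 2 or 3, with adjusted p up to 0.21, and IER2 kept the call only when untreated replicate 1 was the library omitted (adjusted p up to 0.076 otherwise). Between 3 and 6 of the 8 calls held when 1 library was left out, and IER3 alone held against untreated replicate 1.

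Feedback inhibitors of ERK signalling also fell, with 7 of 20 measured genes lower, 0 higher and a median of -0.13. SPRY4, a Sprouty inhibitor of receptor tyrosine kinase signalling, had 22.0, 23.0 and 21.2 CPM at 30 min, against 37.4, 35.3 and 40.5 CPM at 0 min. Its 6 libraries formed 2 tight sets, and it fell by 0.77 (SE 0.06, adjusted p = 3.4e-05). DUSP6, the cytoplasmic ERK phosphatase, had 56.2, 67.4 and 60.3 CPM at 30 min, against 93.9, 124 and 132 CPM at 0 min and fell by 0.93 (SE 0.10, adjusted p = 0.00057); AC024909.1, antisense to DUSP6, fell by 1.09 (SE 0.16, adjusted p = 0.0066) and may count the same reads. SPRY1 fell by 0.67 (SE 0.07, adjusted p = 0.00057) and SPRY2 fell by 0.45 (SE 0.08, adjusted p = 0.025). EPHA2, a receptor tyrosine kinase that ERK induces, fell by 0.43 (SE 0.04, adjusted p = 0.00013), and ERRFI1, an inhibitor of the EGF receptor, fell by 0.47 (SE 0.06, adjusted p = 0.0023). Of these, SPRY2 lost the call on omission of 30 min replicates 1 or 3 or of 0 min replicates 2 or 3, with adjusted p up to 0.12.

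DUSP1, the nuclear phosphatase of stress kinases and ERK, had 13.4, 14.6 and 11.7 CPM at 30 min, against 16.9, 48.3 and 60.6 CPM at 0 min. Its untreated replicate 1 lay just above the exposed libraries. DUSP1 fell by 1.67 (SE 0.31, adjusted p = 0.027), lost the call on omission of any library other than untreated replicate 1 (adjusted p up to 0.13) and was at -0.35 (adjusted p = 0.47) against that library alone. It was also not called by limma voom (adjusted p = 0.073), with the replicate number as a block (0.057), with the mitochondrial share as a term (0.075) or with the compared groups fitted alone (0.17). Of the 7 calls in the list, 4 held against untreated replicate 1 alone (SPRY4, SPRY1, DUSP6 and EPHA2), and 7 held without it. Among 9 measured glucocorticoid targets, DUSP1 and ERRFI1 fell and SGK1 rose.

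Of the genes called lower, 62 of 104 (59.6%) had untreated replicate 1 as the lowest untreated library, which was so for 38.9% of all genes tested. The genes called higher leaned the same way, with untreated replicate 1 the highest untreated library for 18 of 32 (56.2%), against 38.5% of all. A spread of over 2-fold between the highest and the lowest untreated library was found for 8 of the 104: FOSB, FOS, AL109811.3, EGR1, CCN1, JUN, DUSP1 and PPP1R15A. The split of the libraries by mitochondrial share puts this library with 30 min replicates 2 and 3. The log2 ratio of mean levels at 30 min over 0 min was -2.30 within the libraries of higher mitochondrial share and -5.28 within those of lower share for FOS, and -1.40 within the libraries of higher mitochondrial share and -1.42 within those of lower share for IER3. With this split as a term in the fit, 133 genes were called, 113 of them shared with the 136. The part of the split in the early genes was not tested further.

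A second set of strongly lowered genes had untreated libraries that lay together. DDIT4, a stress-induced inhibitor of mTORC1 (chr10:72273920-72276036, plus strand), had 59.8, 57.4 and 53.5 CPM at 30 min, against 139, 143 and 153 CPM at 0 min. The groups were separated by a wide gap, and DDIT4 fell by 1.35 (SE 0.06, adjusted p = 1.4e-07). The antisense gene that overlaps it, DDIT4-AS1, fell by 1.28 (SE 0.08, adjusted p = 4.1e-06) and may hold some of the same reads. DDIT4 was the sole called gene among 20 mTORC1 and energy regulators, whose median was -0.05; SESN2, a Sestrin that restrains mTORC1, was at -0.23 (SE 0.05, adjusted p = 0.057) and did not pass.

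BHLHE40, a basic helix-loop-helix repressor in the circadian clock (chr3:4979116-4985323, plus strand), had 17.8, 18.4 and 15.0 CPM at 30 min, against 49.5, 51.9 and 61.3 CPM at 0 min. It fell by 1.66 (SE 0.10, adjusted p = 3.6e-06), and every untreated library was far above every exposed one. It was the sole called gene of 17 measured clock genes (median -0.05), and PER1, a core clock repressor, was at -0.13 (SE 0.07, adjusted p = 0.6). BHLHE40-AS1, on the opposite strand, was not called. SNX22, a sorting nexin that binds membrane phosphoinositides, had 5.34, 7.26 and 7.44 CPM at 30 min, against 27.8, 25.9 and 26.4 CPM at 0 min and fell by 2.01 (SE 0.41, adjusted p = 0.045). Its levels were less even at the other times (29.9, 33.1 and 11.2 CPM at 10 min and 8.11, 24.1 and 26.7 CPM at 360 min), and the call was lost on omission of any of the 6 libraries (adjusted p up to 0.18). SNX22 overlaps PPIB on the opposite strand, which was not called (log2 fold change 0.04).

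Several stress and metabolic lists held a few genes that fell. In the hypoxia list 5 of 26 measured genes fell and 0 rose, 20 lay below 0, with a median of -0.08. ADM, the gene of the vasodilator peptide adrenomedullin, had 12.0, 11.5 and 9.65 CPM at 30 min, against 19.3, 22.6 and 24.2 CPM at 0 min and fell by 0.99 (SE 0.09, adjusted p = 0.0002). VEGFA, the angiogenic growth factor gene, had 142, 137 and 131 CPM at 30 min, against 192, 179 and 185 CPM at 0 min and fell by 0.44 (SE 0.06, adjusted p = 0.0023). ANKRD37, a target of hypoxia-inducible factor, fell by 0.89 (SE 0.17, adjusted p = 0.028), the glycolytic regulator PFKFB3 fell by 0.64 (SE 0.13, adjusted p = 0.041) and the glucose transporter gene SLC2A3 fell by 0.38 (SE 0.06, adjusted p = 0.0073). ANKRD37 lost the call in all 6 omissions (adjusted p up to 0.13), and so did PFKFB3 (up to 0.17). PFKFB3 was also the sole called gene of 24 glycolysis genes (median -0.01).

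Among 22 cytosolic heat shock proteins and co-chaperones 4 fell and 0 rose, 20 lay below 0 and the median was -0.16. HSPA1A, an inducible HSP70 gene, had 130.0, 119 and 126 CPM at 30 min, against 163, 191 and 201 CPM at 0 min and fell by 0.57 (SE 0.07, adjusted p = 0.00092). Its near-identical copy HSPA1B fell by 0.55 (SE 0.06, adjusted p = 0.00089), and reads cannot be assigned between the copies with certainty. HSPH1, the HSP110 exchange factor of HSP70, fell by 0.28 (SE 0.04, adjusted p = 0.0085), and the co-chaperone gene BAG3 fell by 0.27 (SE 0.05, adjusted p = 0.022). BAG3 kept the call only when untreated replicate 1 was the library omitted (adjusted p up to 0.097 otherwise). HSPH1 lost the call on omission of 30 min replicate 1 or of 0 min replicate 3, with adjusted p up to 0.054, and HSPA1A alone of the 4 held against untreated replicate 1. In the endoplasmic reticulum, HERPUD1, a component of the machinery that degrades misfolded proteins, was the sole called gene of 23 (median -0.02) and fell by 0.37 (SE 0.07, adjusted p = 0.027). HERPUD1 kept the call only when untreated replicate 1 was the library omitted (adjusted p up to 0.12 otherwise).

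Of 26 measured p53 targets 2 fell and 0 rose (median -0.07). GDF15, a stress cytokine gene, had 74.6, 79.8 and 77.9 CPM at 30 min, against 120.3, 112 and 124 CPM at 0 min, with a clear gap between the groups, and fell by 0.62 (SE 0.04, adjusted p = 1.4e-05). The other was BTG2, given above with the mRNA decay factors and with its omissions. In the list of FOXO and insulin targets 4 of 16 fell and 1 rose (median -0.04). CITED2, a coregulator that competes for the coactivators CBP and p300, had 12.1, 12.1 and 12.0 CPM at 30 min, against 19.7, 23.0 and 26.8 CPM at 0 min and fell by 0.94 (SE 0.11, adjusted p = 0.00082). TRIB1, a pseudokinase that directs C/EBPα to degradation, fell by 0.52 (SE 0.07, adjusted p = 0.0023), PCK1, the rate-controlling enzyme of gluconeogenesis, fell by 0.36 (SE 0.06, adjusted p = 0.015) and the repressor gene BCL6 fell by 0.30 (SE 0.04, adjusted p = 0.0026). Of the 4, PCK1 lost the call on omission of 30 min replicates 2 or 3 or of 0 min replicates 2 or 3, with adjusted p up to 0.098. Against untreated replicate 1 alone, the changes were smaller, with CITED2 at -0.71, TRIB1 at -0.43, PCK1 at -0.25 and BCL6 at -0.26.

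Of 23 hepatocyte transcription factors 3 fell by small amounts and 0 rose (median -0.02). NR0B2, the nuclear receptor SHP that represses bile acid synthesis, had 49.2, 53.5 and 56.6 CPM at 30 min, against 74.3, 65.9 and 69.8 CPM at 0 min and fell by 0.40 (SE 0.06, adjusted p = 0.01). FOXA2, a pioneer factor of liver genes, had 27.1, 25.9 and 26.7 CPM at 30 min, against 31.5, 31.5 and 33.7 CPM at 0 min and fell by 0.28 (SE 0.04, adjusted p = 0.0056); with the compared groups fitted alone FOXA2 was not called (adjusted p = 0.061). HNF4A, the central nuclear receptor of hepatocytes, had 259.7, 265 and 274 CPM at 30 min, against 293, 303 and 302 CPM at 0 min and fell by 0.17 (SE 0.03, adjusted p = 0.038). HNF4A kept the call only when untreated replicate 1 was the library omitted (adjusted p up to 0.18 otherwise), and NR0B2 lost the call on omission of 0 min replicate 3, with adjusted p up to 0.051. None of the 3 held against untreated replicate 1 alone. In the TGF-beta and BMP list the Notch target HEY1 fell by 0.72 (SE 0.11, adjusted p = 0.0055) and ID1, an inhibitor of differentiation factors, fell by 0.32 (SE 0.06, adjusted p = 0.026), 2 of 14 with 0 higher and a median of -0.08. ID1 kept the call only when untreated replicate 1 was the library omitted (adjusted p up to 0.13 otherwise).

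**Figure D3:**
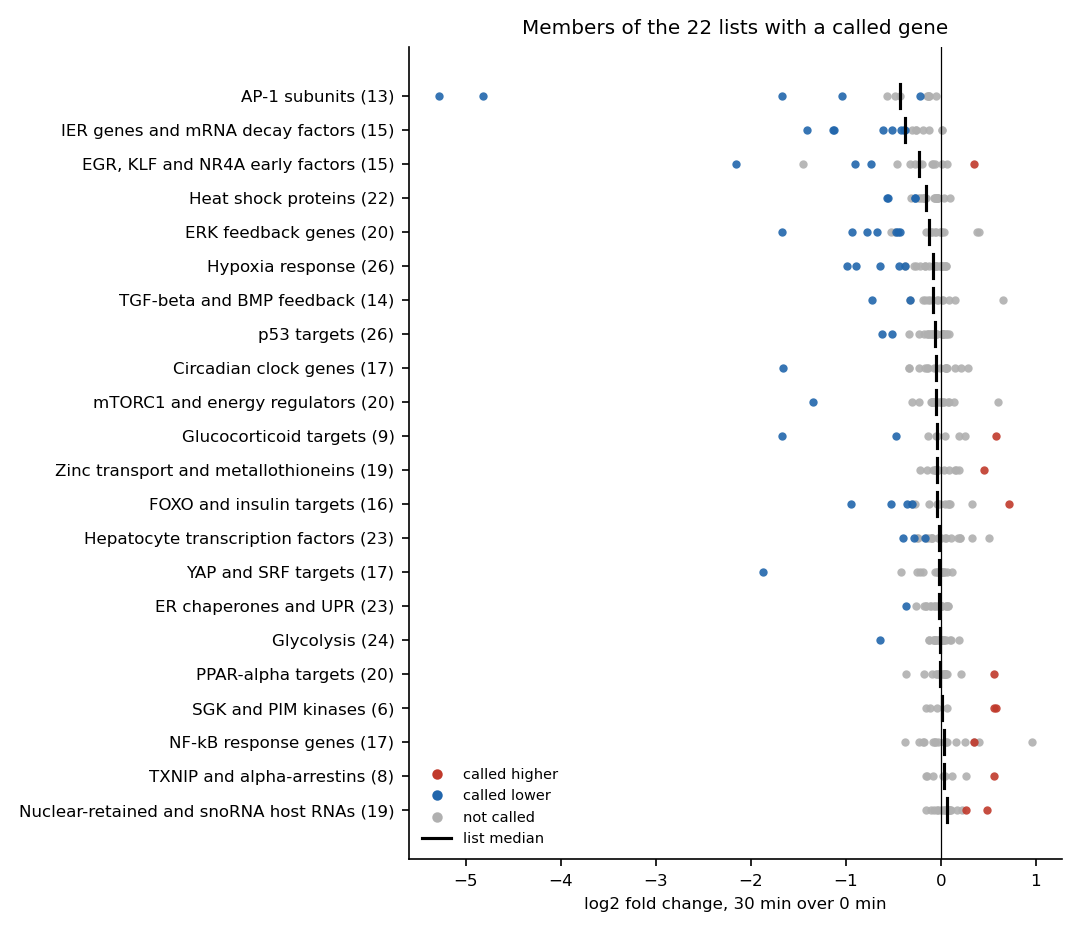
Log2 fold change at 30 min over 0 min of each measured member of the 22 lists that held a called gene, with the number measured in brackets, called members in colour and the list median as a black bar. The median is farthest below 0 for AP-1 subunits at -0.43 and for IER genes and mRNA decay factors at -0.38, while most other lists have 1 or a few outlying genes.

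Of the genes that rose, 9 of 32 stood in a list, against 46 of the 104 that fell, and none of the rises matched the size of the largest falls. The lists were written with earlier results of these data known, and the share of all tested genes in a list was not counted. The counts therefore say nothing about the genes beyond the lists. TXNIP, an arrestin that limits glucose uptake and binds thioredoxin (chr1:145992435-145996600, minus strand), had 85.0, 84.9 and 81.3 CPM at 30 min, against 60.2, 57.3 and 53.4 CPM at 0 min. Every exposed library lay above every untreated one, and TXNIP rose by 0.56 (SE 0.05, adjusted p = 9.7e-05). It was the sole called gene of 8 measured alpha-arrestin and glucose-sensing genes (median 0.03) and of 20 PPAR-alpha targets, a list in which it also stands.

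Both called members of the SGK and PIM kinase list rose, out of 6 measured (median 0.01). SGK1, a kinase close to AKT that glucocorticoids and osmotic stress induce, had 72.0, 77.2 and 79.6 CPM at 30 min, against 47.9, 53.3 and 51.9 CPM at 0 min and rose by 0.58 (SE 0.05, adjusted p = 0.0001). PIM1, a survival kinase controlled mainly by its amount, had 28.1, 31.2 and 28.7 CPM at 30 min, against 19.0, 19.8 and 20.9 CPM at 0 min and rose by 0.56 (SE 0.07, adjusted p = 0.0026). In both genes the groups were well separated. DEPP1, a FOXO target linked to autophagy, had 8.88, 7.81 and 9.01 CPM at 30 min, against 5.14, 5.19 and 5.24 CPM at 0 min and rose by 0.72 (SE 0.09, adjusted p = 0.0025). Set against untreated replicate 1 only, SGK1 was at 0.67 (adjusted p = 0.0028), PIM1 at 0.63 (adjusted p = 0.05) and DEPP1 at 0.74 (adjusted p = 0.1). SLC30A1, which exports zinc from the cell, had 55.7, 59.6 and 58.0 CPM at 30 min, against 39.8, 44.6 and 42.3 CPM at 0 min and rose by 0.45 (SE 0.06, adjusted p = 0.0036); it was the sole called gene of 19 zinc transport and metallothionein genes (median -0.04). NFKBIZ, a nuclear regulator of NF-kB targets, was the sole called gene of 17 NF-kB response genes (median 0.03) and rose by 0.35 (SE 0.06, adjusted p = 0.017), while NFKBIA, the inhibitor that NF-kB induces, was at 0.25 (SE 0.06, adjusted p = 0.12). NFKBIZ lost the call on omission of 30 min replicates 1 or 3 or of 0 min replicates 1 or 3, with adjusted p up to 0.098.

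**Figure D4:**
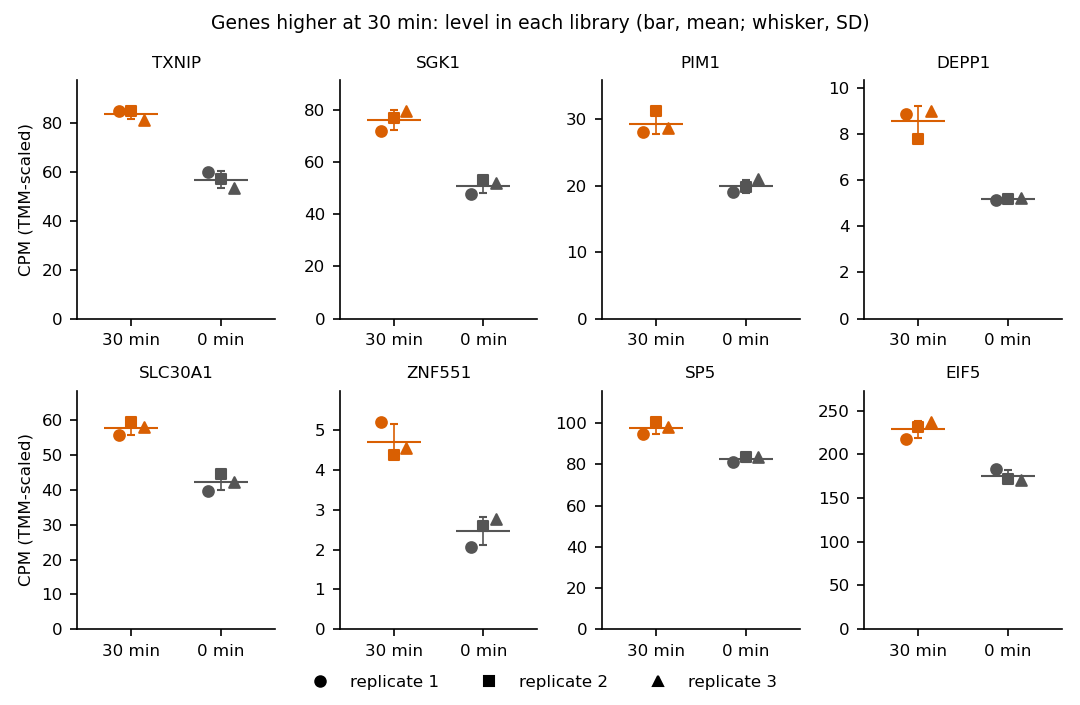
Level in each library (CPM after TMM scaling, linear axes from 0) of 8 genes called higher, with 30 min left of 0 min; symbols mark the replicate, bars the mean and whiskers the SD (n = 3). The exposed libraries of each gene lie above its untreated ones, with log2 fold changes from 0.24 for SP5 to 0.93 for ZNF551.

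Where the mean log2 CPM was 1 or more, several of the largest rises were in zinc finger genes of chromosome 19 and in RNAs without a protein. ZNF551 had 5.21, 4.36 and 4.56 CPM at 30 min, against 2.06, 2.58 and 2.76 CPM at 0 min and rose by 0.93 (SE 0.15, adjusted p = 0.0098). Omission of 30 min replicate 1 ended this call, with adjusted p = 0.06. ZNF134 had 4.23, 4.05 and 4.22 CPM at 30 min, against 2.14, 2.76 and 2.20 CPM at 0 min and rose by 0.81 (SE 0.13, adjusted p = 0.012), and ZNF441 had 5.93, 6.48 and 5.82 CPM at 30 min, against 4.07, 3.91 and 3.91 CPM at 0 min and rose by 0.62 (SE 0.12, adjusted p = 0.039); ZNF134 lost the call on omission of 30 min replicates 1 or 3 or of 0 min replicate 3, with adjusted p up to 0.08, and ZNF441 lost the call in all 6 omissions (adjusted p up to 0.16). Of 390 measured genes with a ZNF symbol, 4 rose, 0 fell and the median was 0.03.

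Among RNAs without a protein, AL109811.2 rose by 0.90 (SE 0.15, adjusted p = 0.014), NFYC-AS1 rose by 0.74 (SE 0.13, adjusted p = 0.02), AL161891.1 rose by 0.67 (SE 0.09, adjusted p = 0.0036), LINC00574 rose by 0.66 (SE 0.13, adjusted p = 0.029), AC084018.2 rose by 0.64 (SE 0.10, adjusted p = 0.0075) and SGMS1-AS1 rose by 0.64 (SE 0.13, adjusted p = 0.038). Each of these 6 overlaps another tested gene, and the part of shared reads in their counts was not tested. LINC00574 lost the call in all 6 omissions (adjusted p up to 0.13), and SGMS1-AS1 kept the call only when untreated replicate 1 was the library omitted (adjusted p up to 0.18 otherwise). AL109811.2 lost the call on omission of 30 min replicates 2 or 3 or of 0 min replicate 3, with adjusted p up to 0.078, and NFYC-AS1 lost the call on omission of 30 min replicates 1 or 2 or of 0 min replicates 2 or 3, with adjusted p up to 0.12. Of 19 measured RNAs that stay in the nucleus or host snoRNAs, 2 rose (median 0.06): SNHG1 rose by 0.27 (SE 0.05, adjusted p = 0.041) and EPB41L4A-AS1 rose by 0.49 (SE 0.09, adjusted p = 0.028). SNHG1 kept the call only when untreated replicate 1 was the library omitted (adjusted p up to 0.19 otherwise), and the same held for EPB41L4A-AS1 (up to 0.13 otherwise).

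Some called genes outside the lists are named here after their values were seen. SP5, a direct target of Wnt and beta-catenin, had 94.6, 101 and 98.3 CPM at 30 min, against 81.1, 83.4 and 83.6 CPM at 0 min and rose by 0.24 (SE 0.03, adjusted p = 0.0028), and AXIN2, the feedback scaffold of the same pathway, rose by 0.23 (SE 0.05, adjusted p = 0.043). AXIN2 lost the call in all 6 omissions (adjusted p up to 0.18). SNHG3, a further snoRNA host, rose by 0.28 (SE 0.05, adjusted p = 0.013), and SNHG3 lost the call on omission of 30 min replicates 2 or 3 or of 0 min replicate 2, with adjusted p up to 0.065. DHRS2, a short-chain dehydrogenase, rose by 0.28 (SE 0.03, adjusted p = 0.00057), and EIF5, a translation initiation factor gene, had 218, 231 and 237 CPM at 30 min, against 183, 172 and 170.0 CPM at 0 min and rose by 0.38 (SE 0.04, adjusted p = 0.00034). Of the genes called lower outside the lists, the amino acid transporter gene SLC38A2 fell by 0.41 (SE 0.06, adjusted p = 0.0028), BMP4 fell by 0.30 (SE 0.04, adjusted p = 0.0028) and the adaptor gene CRKL fell by 0.28 (SE 0.03, adjusted p = 0.0012). The Notch ligand gene JAG1 fell by 0.22 (SE 0.03, adjusted p = 0.0082) but did not pass with the compared groups fitted alone (adjusted p = 0.059). The cytokine gene LIF fell by 0.66 (SE 0.11, adjusted p = 0.011), and LIF lost the call on omission of 30 min replicates 1 or 3 or of 0 min replicate 3, with adjusted p up to 0.068.

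Lists that bear on how liver cells handle foreign compounds held no called gene. Among 9 aryl hydrocarbon receptor targets the smallest p belonged to CYP1A1, the cytochrome P450 this receptor induces, which had 2.36, 2.35 and 2.21 CPM at 30 min, against 2.97, 3.04 and 2.13 CPM at 0 min and was at -0.23 (SE 0.17, adjusted p = 0.78). Its groups overlapped at 30 and 0 min, and at 360 min it had 8.41, 8.65 and 7.94 CPM, above 30 min by 1.85 (SE 0.17, adjusted p = 1.1e-05). UGT1A6, a glucuronosyltransferase of the same list, was at -0.68 (SE 0.68, adjusted p = 0.84). Among 18 phase I and phase II enzymes CYP2E1 was at 1.09 (SE 0.50, adjusted p = 0.54) and CYP8B1 at 0.40 (SE 0.27, adjusted p = 0.74), and among 21 NRF2 targets OSGIN1 was at 0.23 (SE 0.06, adjusted p = 0.14) and AKR1C1 at -0.08 (SE 0.04, adjusted p = 0.59). The other lists without a call numbered 7. Among 22 ATF4 and amino acid stress genes the smallest p belonged to SESN2, given above, and STC2, at -0.26 (SE 0.06, adjusted p = 0.076). Among 23 genes of cholesterol synthesis and uptake HMGCS1 was at 0.11 (SE 0.04, adjusted p = 0.41) and MSMO1 at -0.18 (SE 0.07, adjusted p = 0.43). Of 38 secreted proteins of hepatocytes KNG1 was at 0.56 (SE 0.19, adjusted p = 0.34) and FGG at 0.08 (SE 0.03, adjusted p = 0.45).

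In growth and housekeeping lists the nearest to a call was PRC1, a spindle midzone protein gene, at -0.24 (SE 0.05, adjusted p = 0.054) among 28 G2 and M phase genes, where CCNA2 was at 0.09 (SE 0.04, adjusted p = 0.46). Of 25 genes of MYC and ribosome biogenesis MYC was at 0.15 (SE 0.05, adjusted p = 0.29) and MNT at 0.16 (SE 0.06, adjusted p = 0.35). Of 30 cytosolic ribosomal protein genes RPL13 was at -0.04 (SE 0.03, adjusted p = 0.72) and RPLP0 at -0.06 (SE 0.04, adjusted p = 0.77). The medians of these 6 lists lay between -0.01 and 0.03. The 13 mitochondrial mRNAs had a median of 0.21, with MT-ND6 at -0.55 (SE 0.22, adjusted p = 0.44) and MT-CO1 at 0.20 (SE 0.17, adjusted p = 0.81), and summed to 20400, 32700 and 31400 CPM at 30 min and 35700, 18500 and 18900 CPM at 0 min.

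The called protein-coding genes had fewer exons and shorter spans in the median than all tested, but longer transcripts. In the GENCODE 29 annotation the longest transcript had a median of 4 exons for the 97 lower genes, 5 for the 21 higher ones and 8 for all 13105 tested. That transcript had up to 3 exons for 41 lower genes (42.3%), 8 higher genes (38.1%) and 18.0% of all. It was the longest of any type, so it need not be the coding one. The median gene span was 14000 bases for lower genes and 15500 for higher genes, against 30400 for all, while the median transcript length was 3930 and 4260 bases, against 3550. The heptamer TATTTAT, the core of AU-rich decay elements, was looked for after the data had been seen. It stood in the 3′ untranslated region of 53 of 96 lower genes (55.2%), 9 of 21 higher genes (42.9%) and 4224 of 12847 tested (32.9%), and the median length of that region was 1480, 1650 and 1180 bases. The part of that length in the shares was not tested. Of 135 called genes with a position, 51 overlapped another tested gene on the opposite strand, among them FOSB with ERCC1, JUNB with HOOK2, VEGFA with AL136131.3 and DEPP1 with RASSF4. The same share over all genes tested was not counted, so 51 of 135 cannot be called high or low. By type, the 104 lower genes held 97 protein-coding, 3 antisense and 4 pseudogenes, and the 32 higher genes 21 protein-coding and 11 others, of which 4 were lincRNAs and 3 antisense.

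The level at 30 min was also tested directly against the other exposed groups, to see where in time a change stood. Against 10 min, 102 genes (0.574%) differed, 29 higher and 73 lower at 30 min, and against 0 min 3 genes (0.0169%) were called at 10 min. The share lower among the 102 was 71.6%, against 59% with total-count scaling and 60% with no filter. The count was 39 to 51 on omission of any of the 6 libraries other than 10 min replicate 2, without which it was 83. In the same fit 4034 genes (22.7%) differed between 360 and 30 min, 2029 higher and 2005 lower at 360 min, and 3215 (18.1%) differed between 360 and 0 min. These comparisons share libraries, so no overlap between them is given. The genes named below were picked for their change at 30 min in the same libraries, which favours differences from the other times.

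DDIT4, BHLHE40, ADM, CITED2 and GDF15 had their lowest mean of the 4 times at 30 min. DDIT4 had 139, 143 and 153 CPM at 0 min, 149.7, 131 and 154 CPM at 10 min, 59.8, 57.4 and 53.5 CPM at 30 min and 223, 213 and 210.0 CPM at 360 min. The log2 fold change at 30 min over 10 min was -1.35 (SE 0.06, adjusted p = 3.2e-07), and at 360 min DDIT4 was above 30 min by 1.92 (SE 0.06, adjusted p = 2.3e-09). BHLHE40 had log2 fold changes over 0 min of -0.05 at 10 min, -1.66 at 30 min and 0.06 at 360 min, and at 30 min it differed from 10 min by -1.60 (SE 0.10, adjusted p = 6.2e-06). ADM stood at 0.03 at 10 min, -0.99 at 30 min and -0.45 at 360 min (30 min against 10 min, adjusted p = 0.0002), CITED2 at -0.12 at 10 min, -0.94 at 30 min and 0.08 at 360 min (adjusted p = 0.0035) and GDF15 at -0.12 at 10 min, -0.62 at 30 min and 0.14 at 360 min (adjusted p = 0.00016). IER3 was stepwise, with 143, 134 and 155 CPM at 0 min, 101, 99.4 and 99.8 CPM at 10 min, 54.0, 58.1 and 50.3 CPM at 30 min and 141, 141 and 158 CPM at 360 min, and differed between 30 and 10 min by -0.88 (SE 0.06, adjusted p = 2.2e-05). Both hypoxia genes VEGFA and SLC2A3 lay a little above 0 min at 10 min (0.14 and 0.10, not called) and below it at 30 min, a difference between 30 and 10 min with adjusted p = 0.00031 and 0.0018.

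The AP-1 and EGR1 group followed another course. FOS had 14.1, 106 and 136 CPM at 0 min, 13.0, 10.6 and 7.10 CPM at 10 min, 3.09, 3.52 and 2.21 CPM at 30 min and 1.59, 2.93 and 1.80 CPM at 360 min. The untreated replicates 2 and 3 were high, and all 9 exposed libraries were below the lowest untreated one. For FOS the difference between 30 and 10 min was -1.75 (SE 0.66, adjusted p = 0.31), for FOSB -1.36 (SE 0.75, adjusted p = 0.51), for JUN -0.07 (SE 0.29, adjusted p = 0.96), for DUSP1 -0.32 (SE 0.32, adjusted p = 0.75) and for EGR1 -0.69 (SE 0.35, adjusted p = 0.47). None of these passed. At 360 min the 5 genes had log2 fold changes over 0 min from -5.63 for FOSB to -1.77 for EGR1, given here without a test.

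**Figure D5:**
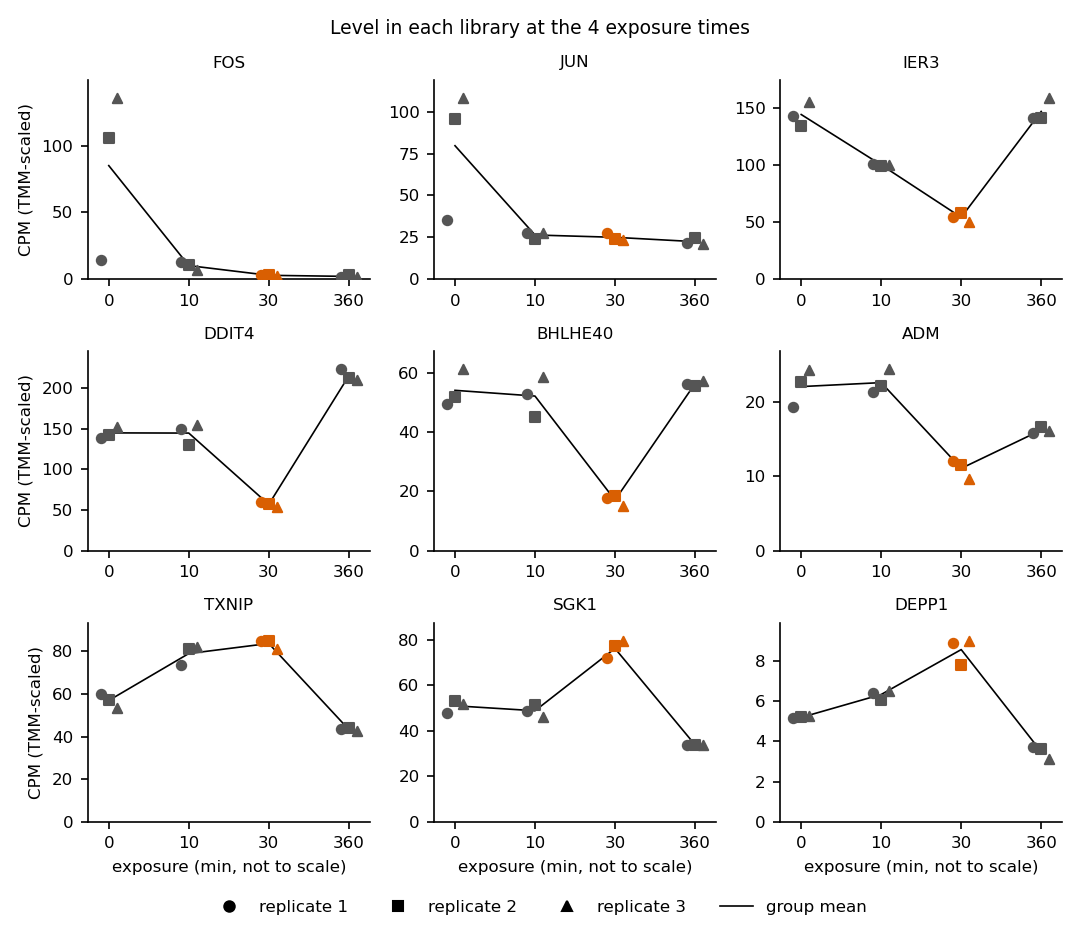
Level in each library (CPM after TMM scaling, linear axes from 0) at 0, 10, 30 and 360 min for 9 genes, with the 30 min libraries in orange, symbols for the replicate and a line through the group means. DDIT4, BHLHE40 and ADM are lowest at 30 min, FOS and JUN are low at every exposed time, and TXNIP, SGK1 and DEPP1 have their highest mean at 30 min and lie below their 0 min level at 360 min.

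Several genes that rose at 30 min had a log2 fold change over 0 min below 0 at 360 min. For these genes the values at 360 min over 0 min are given without a test. SGK1 stood at -0.06 at 10 min, 0.58 at 30 min and -0.59 at 360 min, and its level at 30 min was above that at 10 min by 0.64 (SE 0.05, adjusted p = 5.7e-05). SLC30A1 stood at 0.02 at 10 min, 0.45 at 30 min and -0.30 at 360 min (30 min against 10 min, adjusted p = 0.008). TXNIP, already called higher at 10 min (adjusted p = 0.0053), stood at 0.47 at 10 min, 0.56 at 30 min and -0.39 at 360 min, PIM1 at 0.27 at 10 min, 0.56 at 30 min and -0.48 at 360 min and DEPP1 at 0.29 at 10 min, 0.72 at 30 min and -0.57 at 360 min, and for these 3 the difference between 30 and 10 min did not pass (adjusted p = 0.53, 0.12 and 0.068). Between 360 and 30 min SGK1 fell by 1.17, PIM1 by 1.03, DEPP1 by 1.30 and TXNIP by 0.95 on the log2 scale, with adjusted p-values of 2.3e-08, 1.5e-06, 1.9e-06 and 8.2e-08.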

How the data were processed

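Raw read counts per gene were deposited by the authors as 1 table of 60612 rows, whose 12 columns carry the sample titles; none was left unused. The submitters' processing notes name HISAT2, DESeq2 and GRCh38, without versions or roles. Which program counted the reads, against which annotation and with which strand setting is not given in the sources used here. GENCODE 29 on GRCh38 annotated 58394 of the identifiers, and promoters were read from RefSeq (GRCh38.p14).

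The deposited counts went into edgeR 4.0.16 (R 4.3.3). After filterByExpr with the groups, 17779 genes remained. TMM factors were 0.981 to 1.014. One quasi-likelihood fit covered all 12 libraries with a coefficient for each exposure time (8 residual degrees of freedom, biological coefficient of variation 9.72%). Calls needed an adjusted p (Benjamini-Hochberg over every gene tested, two-sided) under 0.05. The SE is the absolute log2 fold change divided by the square root of F. CPM values carry the TMM factors, except in the marker check. Floors cover counting error only. The fit was tested on simulated counts in which no untreated library was set apart from its group. That test therefore does not bear on the split among the untreated libraries.

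The text names the 15 called genes of largest change, higher and lower each, whose mean log2 CPM was 1 or more and whose libraries did not overlap. Called members of each list were added, or the 2 members of smallest p where none was called. AL109811.3, CCN2, PER1, NFKBIA and the genes said to be outside the lists were added after their values were seen. The comparison, the lists and the rules were chosen with earlier results of these data known. Libraries of a group differed by more than counting noise (chi-square per degree of freedom 7.19 to 34.2).

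The alternatives tried were scaling by RLE or by totals, a stricter filter or none, DESeq2 1.42.0, voom in limma 3.58.1, a fit of the compared groups alone, a block for the replicate number, a term for the mitochondrial share, thinning to the smallest total, the omission of each library, and untreated replicate 1 as the lone library at 0 min. Samples with the same replicate number at 30 and 0 min did not deviate together (correlations -0.055, 0.063 and -0.058), so the numbers were not taken as pairs. At 30 and 10 min the same-number correlations were 0.106, 0.122 and 0.125, and at 360 and 30 min 0.145, -0.033 and 0.131. These are weak, and libraries of unlike number reached 0.096 at 30 and 0 min. The labels name no pairs, and the main fit took none.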

Additional observations from a re-analysis of the deposited data

Results flagged for a closer look

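Among the 15 genes of largest change in each direction (mean log2 CPM of 1 or more), those below differed at 30 min from their level at 10 or 360 min. The test was the direct contrast of the exposed groups in edgeR's quasi-likelihood fit (adjusted p under 0.05). The genes were picked for their 30 min levels, and these contrasts reuse the same 30 min libraries, so the choice favours such differences. Of all genes tested, 0.574% differed between 30 and 10 min and 22.7% between 360 and 30 min. Genes of smaller change that also differed, such as ADM and VEGFA, are given with the timing results above. All values here are log2 fold changes, and what lies behind them was not tested.

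Among genes lower at 30 min than at 0 min, the level at 30 min minus that at 10 min was -1.60 for BHLHE40, -0.88 for IER3, -1.35 for DDIT4 and -1.39 for DDIT4-AS1. The level at 360 min was above that at 30 min by 1.56 for SNX22, 1.72 for BHLHE40, 1.44 for IER3, 1.92 for DDIT4, 1.21 for IER3-AS1, 1.90 for DDIT4-AS1, 0.59 for ZFP36 and 0.96 for AC024909.1.

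Among genes higher at 30 min than at 0 min, the level at 30 min was above that at 10 min by 0.43 for SLC30A1, 0.47 for EPB41L4A-AS1, 0.64 for SGK1, 0.86 for ZNF441, 0.62 for AL161891.1, 0.72 for NFYC-AS1 and 1.05 for ZNF551. With the replicate number as a block, EPB41L4A-AS1 (adjusted p = 0.079) and NFYC-AS1 (adjusted p = 0.059) did not pass. The level at 360 min minus that at 30 min was -0.75 for SLC30A1, -0.48 for EPB41L4A-AS1, -0.95 for TXNIP, -1.03 for PIM1, -1.17 for SGK1, -0.65 for SGMS1-AS1, -0.64 for AC084018.2, -0.81 for AL161891.1, -1.30 for DEPP1, -0.48 for NFYC-AS1, -0.59 for ZNF134, -0.84 for AL109811.2 and -0.82 for ZNF551.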

How the results depend on the processing

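Of the 136 genes called at 30 min against 0 min, DESeq2 called 135 and 271 in all, and the 2 groups alone gave 67. Leaving out 1 library gave 61 to 163: 163 without 0 min replicate 1, 79 and 61 without 0 min replicates 2 and 3, and 68, 79 and 73 without 30 min replicates 1, 2 and 3. Untreated replicate 1 as the lone library at 0 min, a fit in which it is assumed to vary like the other groups, gave 52, of which 32 were among the 136. The other alternatives gave 109 to 170. Against 10 min, DESeq2 gave 290 in place of 102, and leaving out 1 library gave 39 to 83: 39, 83 and 48 without 10 min replicates 1, 2 and 3, and 51, 46 and 40 without 30 min replicates 1, 2 and 3. The share lower at 30 min was 71.6%, against 59% with total-count scaling and 60% with no filter. Between 360 and 30 min the count was 3024 to 4551 under every alternative run, against 4034. With the replicate number as a block the counts were 109, 75 and 3883. Over all alternatives, no called gene reversed its direction. The uncalled genes UGT1A6, AKR1C1 and MT-CO1 did change sign, with log2 fold changes of -1.15 to 0.31, -0.12 to 0.0008 and -0.11 to 0.38. Of all gene values, 664 lost the call, 1968 kept their side of the threshold and 12 gained a call, and 17 list medians moved by more than their spread while 335 did not. Among called genes named here, limma voom did not call DUSP1, FOSB, SNX22, FOS and AL109811.3. The term for the mitochondrial share ended the calls of DUSP1, NR4A1, AXIN2, PFKFB3, ZNF441, SGMS1-AS1, LINC00574 and AL109811.3, and the replicate block those of HERPUD1, PPP1R15A, DUSP1, ID1, SNX22, BTG2, AXIN2, PFKFB3, KLF11, ZFP36L1, ANKRD37, MAFG, EPB41L4A-AS1, SGMS1-AS1, LINC00574 and SNHG1. With no filter HNF4A, SPRY2, AXIN2, KLF11, ZNF441, SGMS1-AS1, LINC00574 and NFYC-AS1 were not called, and after thinning BTG2, AXIN2, KLF11, ANKRD37, ZNF441, MAFG, SGMS1-AS1, LINC00574, NFYC-AS1 and AL109811.3 were not. The compared groups alone did not give HERPUD1, KLF6, PPP1R15A, HNF4A, JAG1, DUSP1, HSPH1, EGR1, NR4A1, PCK1, FOXA2, ID1, LIF, SPRY2, CCN1, MCL1, NFKBIZ, BAG3, BTG2, IER2, AXIN2, KLF11, JUN, ZFP36L1, MAFG, ZNF134, EPB41L4A-AS1, SGMS1-AS1, LINC00574, SNHG3, SNHG1, AL109811.2, NFYC-AS1 and AL109811.3. Fewer libraries also leave fewer residual degrees of freedom, and further causes of lost calls were not tested. The depth limits genes near the floor of 3 counts.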
